A study of Homo sapiens with 16 samples.

Results

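The proteasome subunit genes were examined in colorectal cancer cells treated with curcumin or andrographis. They are the protein-coding genes PSMA1 to PSMA7, PSMB1 to PSMB7, PSMC1 to PSMC6 and PSMD1 to PSMD14, taken by gene name where both expression tables listed them. All 34 were found, among 60560 genes listed in each table, of which 19914 are protein coding. 14 of the 34 encode the 20S core and 20 belong to the PSMC and PSMD families of the 19S regulatory particle.

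Gene expression was measured by RNA sequencing in SW480 and HCT116, which are established human colorectal cancer cell lines. Curcumin, a complex extracted from turmeric, and andrographis, an extract of Andrographis paniculata leaves, were each given for 16 h. The paper fixed concentrations for each line separately, lower in HCT116 than in SW480, and reports their use in its later experiments. A difference in response between the lines therefore cannot be told apart from a difference in dose. The curcumin experiment holds SW480 cells with curcumin, HCT116 cells with curcumin and the non-treated control of each line, and the andrographis experiment holds SW480 cells with andrographis, HCT116 cells with andrographis and another non-treated control of each line. Each of these groups had 2 libraries, which gave 16 libraries and 4 comparisons of treated with control cells. Whether replicate libraries stem from separate cultures is not stated in the labels, so p-values measure only the spread between these libraries, which may be technical. The control columns of the andrographis table carry the letter D, and all directions given for andrographis assume that D marks the control.

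The proteasome degrades proteins that carry ubiquitin chains. Its 20S core is a barrel in which rings of alpha subunits (PSMA) gate the entry and rings of beta subunits (PSMB) hold the active sites, with PSMB6, PSMB7 and PSMB5 as the catalytic subunits. The 19S particle caps the barrel. Its base holds the ATPases PSMC1 to PSMC6, which unfold substrates, together with the scaffold subunits PSMD1 and PSMD2 and the ubiquitin receptor PSMD4, and its lid holds the deubiquitinase PSMD14 among structural subunits. PSMD5, PSMD9 and PSMD10 are chaperones that assemble the base and leave before the particle is complete. When proteasome activity is limiting, the transcription factor NFE2L1 is known to raise the expression of the subunit genes together, through antioxidant response elements in their promoters.

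Promoter windows of RefSeq (GRCh38.p14, 250 bases before to 50 bases after a start site) were found for 29 of the 34 genes and not used for PSMA7, PSMB1, PSMB6, PSMB7 and PSMD4. The core letters of the antioxidant response element, TGACNNNGC, were searched on both strands because NFE2L1 and NFE2L2 bind this element. They occurred in 9 of the 35 windows of these genes (25.7%), against 13.3% of all 35116 windows. By family, 2 of 14 windows of 20S core genes and 7 of 21 windows of 19S genes held them. The stretches below show the match in capitals, on the strand of the gene, for subunits that are described further on. PSMD5 is included because it differed from most other genes in its values in HCT116 cells.
PSMA4 (chr15:78540644-78540684, plus strand): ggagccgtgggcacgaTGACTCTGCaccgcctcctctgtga
PSMC5 (chr17:63827648-63827688, plus strand; the match is on the opposite strand): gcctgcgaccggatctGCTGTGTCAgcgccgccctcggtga
PSMD3 (chr17:39980754-39980794, plus strand): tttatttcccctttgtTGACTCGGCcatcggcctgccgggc
PSMD12 (chr17:67366718-67366758, minus strand): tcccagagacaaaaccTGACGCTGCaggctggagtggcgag
PSMD5 (chr9:120843032-120843072, minus strand): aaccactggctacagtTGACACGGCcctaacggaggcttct
A match of letters is a description and no evidence of binding. Another short motif of housekeeping promoters, CCAAT, searched on both strands, occurred in 16 of the 35 windows (45.7%) and in 34.6% of all windows.

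The depth of the libraries, estimated from the steps of low microRNA genes, ran from 9.40 to 23.1 M (megareads) in the curcumin experiment and from 15.7 to 32.3 M in the andrographis experiment. Transcripts of the mitochondrial genome took 35.8% to 41.8% of the summed expression in the curcumin libraries and 0.0395% to 0.0853% in the andrographis libraries, so levels were not compared between the experiments. Expression is given as FPKM, back-transformed from the log2 values of the tables. The epithelial markers EPCAM, KRT8 and KRT18 were at 59.3 FPKM or higher in every library, and the intestinal factor CDX2 was at 2.61 FPKM or higher. Of the 3 immune markers, PTPRC and CD3E did not exceed 0.0466 FPKM, and CD14 ran from 0.0280 to 1.39 FPKM in the curcumin experiment and from 0.245 to 0.786 FPKM in the andrographis experiment, while the intestinal markers GPA33 and VIL1 did not exceed 0.173 and 1.29 FPKM. The stromal marker COL1A1 ran from 0.524 to 3.73 FPKM in the curcumin experiment and from 1.05 to 8.18 FPKM in the andrographis experiment. The other stromal and endothelial markers, COL1A2, DCN and PECAM1, did not exceed 0.0522 FPKM.

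Most subunit genes were well expressed in both cell lines, and levels differed more between genes than between treatments. In the curcumin experiment 25 of the 34 genes had at least 10 FPKM in all 8 libraries, and in the andrographis experiment 26 had. The highest level among the controls belonged to PSMA7, an alpha ring subunit, which had 117 and 120 FPKM in SW480 controls and 65.9 and 79.3 FPKM in HCT116 controls of the curcumin experiment. In HCT116 controls of that experiment PSMB1, a structural beta subunit, had 62.3 and 70.6 FPKM and overlapped with PSMA7. The ATPase gene PSMC1 was the lowest of the ATPases, with 5.22 and 4.98 FPKM in SW480 controls and 3.69 and 3.64 FPKM in HCT116 controls.

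**Figure D1:**
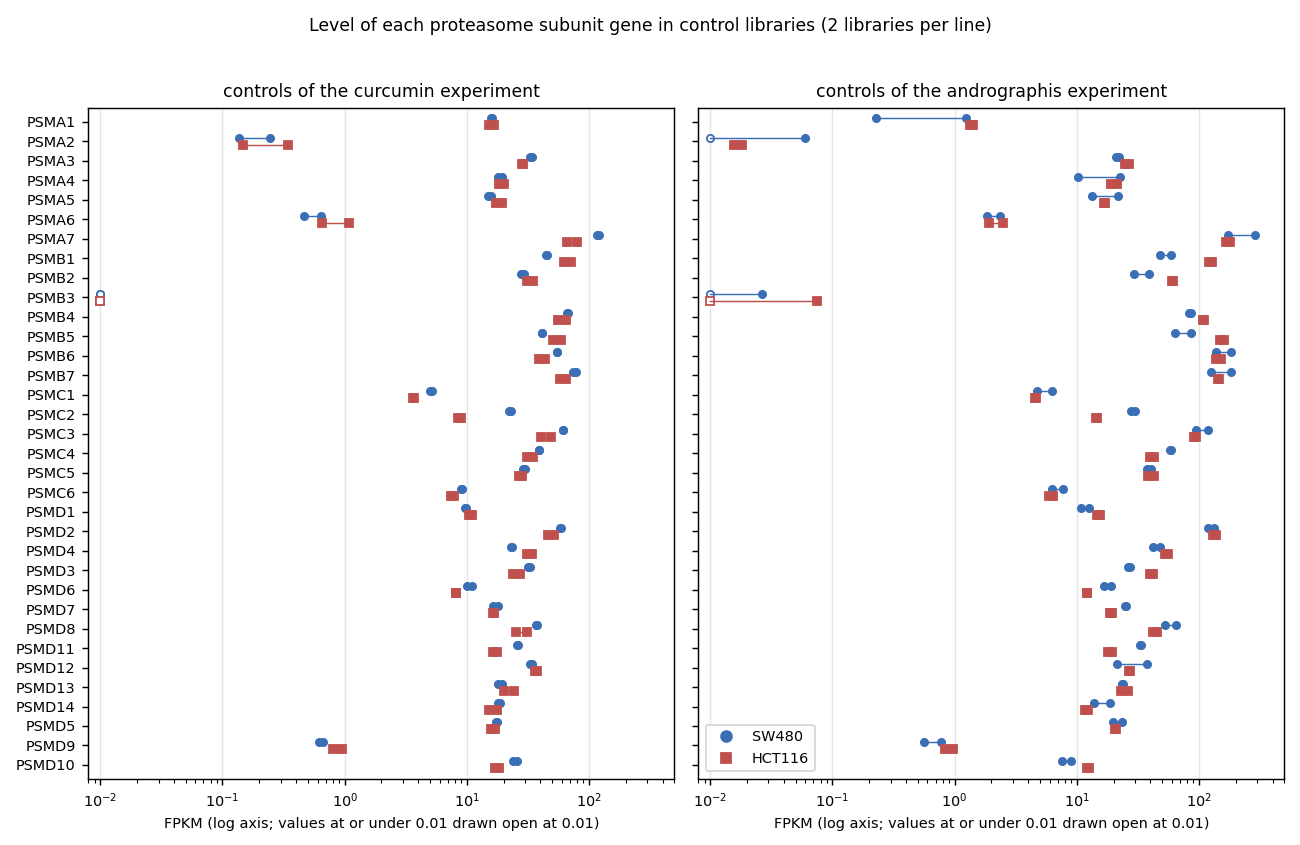
Expression of the 34 subunit genes in control libraries of the curcumin experiment (left) and the andrographis experiment (right), in FPKM on a log axis; circles are SW480 and squares HCT116, with 2 libraries each joined by a line. PSMA2 and PSMB3 lie below 1 FPKM in both panels, and PSMA1 lies near 15 FPKM in the left panel and below 1.5 FPKM in the right one.

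A few core genes were listed at or near 0, although every proteasome needs their products. PSMB3 was listed at 0 in all 8 curcumin libraries and reached 0.0744 FPKM at most in the andrographis libraries. PSMA2 did not exceed 0.345 FPKM in the curcumin experiment or 0.0592 FPKM in the andrographis experiment. PSMA1 had 15.1 to 19.7 FPKM in the curcumin libraries and 0.189 to 1.41 FPKM in the andrographis libraries. PSMA6 and PSMD9 were low in both experiments, with at most 2.92 and 1.08 FPKM. The tables also list 36 pseudogenes of the subunit genes, of which 7 in the curcumin experiment and 4 in the andrographis experiment had a median of at least 1 FPKM. Some copies matched or exceeded their gene in the curcumin experiment. PSMC1P1 ran from 3.06 to 7.90 FPKM beside 3.64 to 6.11 FPKM for PSMC1, and PSMA6P1 from 8.13 to 11.7 FPKM beside 0.366 to 1.26 FPKM for PSMA6. How reads shared between a gene and its copies were counted is not given in the sources used here, so the level of such genes is uncertain.

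The control libraries show the level from which each cell line started. In the curcumin experiment 15 of 31 tested subunit genes differed between SW480 and HCT116 controls at an adjusted p below 0.05 in limma, 12 higher and 3 lower in SW480, where 62.7% of all genes tested differed (33% higher, 29.7% lower). In the andrographis experiment 11 of 32 differed, 5 higher and 6 lower in SW480, where 60.7% of all genes differed (23% higher, 37.7% lower). The share of subunit genes was thus below that of all genes in both experiments. The second count was 7 without HCT116 control replicate 1 and 6 without HCT116 control replicate 2.

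The largest difference between the lines in the curcumin experiment was in the ATPase gene PSMC2, with 22.1 and 22.8 FPKM in SW480 controls and 8.52 and 8.97 FPKM in HCT116 controls. PSMC2 was also higher in SW480 in the andrographis experiment, with 28.0 and 30.1 FPKM in SW480 controls and 14.2 and 14.7 FPKM in HCT116 controls. The lid genes PSMD6 and PSMD11 were called higher in SW480 in both experiments as well. PSMB1 and PSMB5 were called lower in SW480 in both. PSMB5, which carries the chymotrypsin-like active site, had 41.1 and 41.2 FPKM in SW480 controls and 50.3 and 58.6 FPKM in HCT116 controls of the curcumin experiment, and 85.5 and 63.1 FPKM in SW480 controls and 149 and 159 FPKM in HCT116 controls of the andrographis experiment. PSMD3, a lid gene, and PSMD10, a chaperone gene, were called higher in SW480 in the curcumin experiment and lower in SW480 in the andrographis experiment.

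In HCT116 cells, curcumin was accompanied by slightly higher levels of nearly all subunit genes, but none passed the adjusted threshold. Of 31 genes tested, 30 had a positive log2 fold change, and the median of 0.29 stood beside a median of −0.00 over all 16341 genes tested. Both treated libraries lay above both controls in 27 of the 31 genes, where 18.3% of all genes did so, and in none did both lie below, where 19.1% of all genes did. No gene was called at an adjusted p below 0.05 in limma, at which 28 of all genes (0.171%) were called. At an unadjusted p below 0.05, 23 of the 31 were higher and 0 were lower, where 5.96% of all genes were higher and 5.82% lower. The libraries were made from bulk RNA, so fewer or more cells of one state and less or more RNA per cell cannot be told apart.

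The shift in HCT116 cells with curcumin was of similar size in each part of the particle. The median log2 fold change was 0.25 in the alpha ring, 0.33 in the beta ring, 0.34 in the base ATPases, 0.29 in the other base subunits and 0.27 in the lid. The deubiquitinase gene PSMD14 had 21.2 and 23.8 FPKM with curcumin and 15.2 and 17.7 FPKM in controls, a log2 fold change of 0.43 (SE 0.12, adjusted p = 0.246). This was the largest fold change among the subunit genes here, and its groups did not overlap, where 18.3% of all genes were separated with curcumin higher. The lid gene PSMD11 had the lowest adjusted p of the subunit genes, 0.0827 in limma, with 21.9 and 22.1 FPKM with curcumin and 16.3 and 17.5 FPKM in controls, a log2 fold change of 0.36 (SE 0.05).

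The catalytic genes lay within the same range in HCT116 cells with curcumin. PSMB6, with the caspase-like site, had 50.9 and 58.9 FPKM with curcumin and 39.2 and 43.9 FPKM in controls (log2 fold change 0.39, SE 0.09, adjusted p = 0.188). PSMB7, with the trypsin-like site, had 71.5 and 78.2 FPKM with curcumin and 57.8 and 64.7 FPKM in controls (0.29, SE 0.08, adjusted p = 0.234). PSMB5 had 61.9 and 65.1 FPKM with curcumin and 50.3 and 58.6 FPKM in controls (0.22, SE 0.12, adjusted p = 0.527). In all 3 genes both treated libraries were the higher ones, as in 18.3% of all genes. The ubiquitin receptor gene PSMD4 had 36.5 and 39.9 FPKM with curcumin and 31.3 and 34.1 FPKM in controls. The chaperone gene PSMD5 stood apart with 15.9 and 16.0 FPKM with curcumin and 15.9 and 17.1 FPKM in controls, a log2 fold change of −0.05 (SE 0.07), and its groups overlapped. Without HCT116 control replicate 1 the log2 fold change of PSMB5 was 0.11.

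The subunit genes of one library also shifted together between the replicates. The median of replicate 1 minus replicate 2 over the subunit genes was −0.12 with curcumin and −0.14 in controls of HCT116 on the log2 scale, which compares with the median treatment difference of 0.29. The estimated depth of the HCT116 curcumin libraries was 21.5 M in replicate 1 and 10.4 M in replicate 2, and the part of depth in the result was not tested. Without HCT116 curcumin replicate 2 the count at an unadjusted p below 0.05 was 14 of 31, where 3.81% of all genes were higher. The median log2 fold change ranged from 0.23 to 0.37 when each of the 4 libraries was left out.

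**Figure D2:**
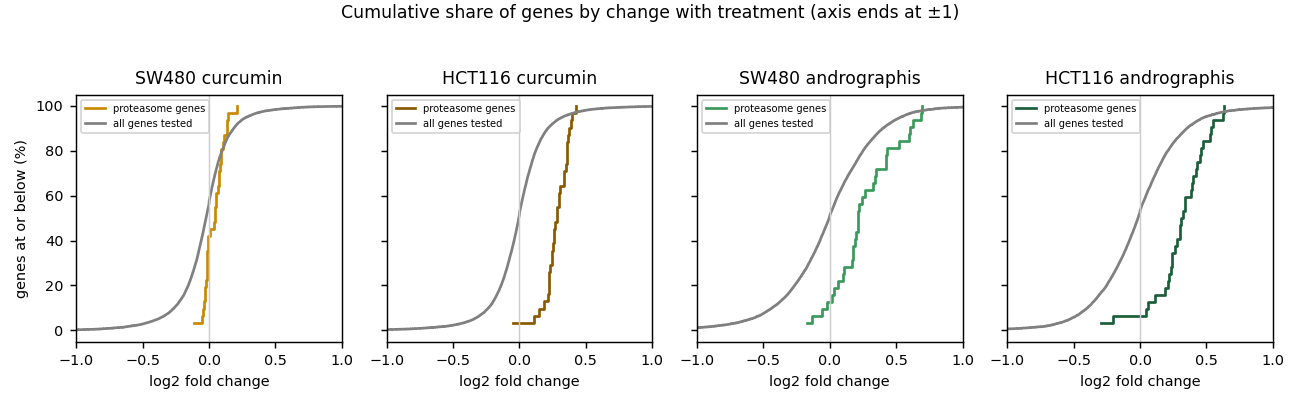
Cumulative share of genes (percent, vertical axis) against log2 fold change of treated over control cells (horizontal axis, which ends at −1 and 1), for the tested subunit genes in colour and all genes tested in grey, in the 4 comparisons. The coloured line lies to the right of the grey one in HCT116 with curcumin (median 0.29 against −0.00) and in both cell lines with andrographis, and close to it in SW480 with curcumin (0.04 against −0.02).

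In SW480 cells, curcumin gave no called subunit gene, and most differences were smaller than their standard errors. Limma called 0 of 31 genes at an adjusted p below 0.05, where 50 of 16341 genes (0.306%) were called. At an unadjusted p below 0.05, 1 of 31 was higher and 0 were lower, where 4.88% of all genes were higher and 7.33% lower. That gene was PSMC1, with 6.11 and 6.0 FPKM with curcumin and 5.22 and 4.98 FPKM in controls, a log2 fold change of 0.21 (SE 0.06, adjusted p = 0.250). The groups were separated with curcumin higher in 7 of 31 genes (22.6%), where 18.5% of all genes were, and lower in none, where 27.8% of all genes were.

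The summed expression of the 34 genes shows the same contrast between the lines, each at its own dose, without any threshold. It was 989 and 1082 FPKM with curcumin and 1003 and 1015 FPKM in controls of SW480, and the groups overlapped. In HCT116 it was 1050 and 1151 FPKM with curcumin and 844 and 947 FPKM in controls, and the groups did not overlap. The difference between the lines did not pass the test for any subunit gene. The interaction contrast called 0 of 31 genes at an adjusted p below 0.05, as it did for all 16341 genes (0% called), while at an unadjusted p below 0.05 the effect was lower in SW480 than in HCT116 in 9 of 31 genes and higher in 0, where it was lower in 4.98% and higher in 3.23% of all genes.

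In SW480 cells with andrographis, limma called 2 subunit genes, both of the beta ring, a share near that of all genes. Of 32 genes tested in limma, 2 were called higher and 0 lower at an adjusted p below 0.05, a share of 6.25%, where 7.28% of all 12811 genes were called with 3.08% called higher and 4.21% lower. PSMB1 had 92.4 and 80.5 FPKM with andrographis and 59.2 and 47.9 FPKM in controls, a log2 fold change of 0.69 (SE 0.14, adjusted p = 0.0376). PSMB2, another structural beta subunit, had 59.8 and 51.0 FPKM with andrographis and 38.8 and 29.2 FPKM in controls, a log2 fold change of 0.70 (SE 0.15, adjusted p = 0.0446). In both genes the lower treated library exceeded the higher control library, as in 21.1% of all genes.

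Both calls in SW480 depended on single libraries. Without SW480 control replicate 2, neither gene was called, with an adjusted p of 0.0993 for PSMB1 and 0.109 for PSMB2. PSMB2 was not called without SW480 andrographis replicate 1 either (adjusted p = 0.0565). Without SW480 control replicate 1, PSMB5 and PSMB7 were called in addition, which made 4 calls. Without SW480 andrographis replicate 2, the called genes were PSMA3, PSMB1, PSMB2, PSMB4 and PSMD10. These further genes were noted after their values were seen, and the share of all genes called in these fits is not given here.

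The beta ring had the largest shift of the subgroups in SW480 cells with andrographis. Its median log2 fold change was 0.62 over 6 tested genes, beside 0.21 in the alpha ring, 0.22 in the base ATPases and 0.19 in the lid. Over all 32 genes the median was 0.21, beside −0.00 over all genes tested, and 28 of 32 values were positive. The median was 0.10 without SW480 andrographis replicate 1 and 0.42 without SW480 andrographis replicate 2. Both treated libraries lay above both controls in 14 of 32 genes and below in none, where 21.1% of all genes lay above and 23.2% below. At an unadjusted p below 0.05, 8 of 32 were higher and 0 lower, where 12.3% of all genes were higher and 13.9% lower. That count was 20 without SW480 andrographis replicate 2, where 15.5% of all genes were higher, and 3 when the 4 SW480 libraries were fitted alone, where 5.02% were.

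Among the catalytic genes in SW480 cells with andrographis, PSMB5 had 117 and 108 FPKM with andrographis and 85.5 and 63.1 FPKM in controls, a log2 fold change of 0.60 (SE 0.16, adjusted p = 0.0697). PSMB7 had 254 and 219 FPKM with andrographis and 184 and 126 FPKM in controls (0.63, SE 0.19, adjusted p = 0.0949). Neither gene passed the threshold, although their groups did not overlap, where 21.1% of all genes were separated with andrographis higher. Their log2 fold changes were 0.39 and 0.36 without SW480 control replicate 2 and 0.82 and 0.90 without SW480 control replicate 1, with both genes called in the last case. PSMB6 had 227 and 155 FPKM with andrographis and 182 and 138 FPKM in controls, and its groups overlapped. PSMD14 had 26.9 and 11.2 FPKM with andrographis and 18.8 and 13.8 FPKM in controls, so its 2 treated libraries lay on either side of both controls. PSMD4 had 63.0 and 40.7 FPKM with andrographis and 48.0 and 41.7 FPKM in controls, and the groups overlapped as well.

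The replicates of SW480 in the andrographis experiment differed more than those of any other pair of groups in these genes. The median gap between replicates over the subunit genes was 0.26 with andrographis and 0.24 in controls on the log2 scale, beside 0.04 and 0.08 for HCT116 in the same experiment. The largest gaps were 1.20 in PSMD14 with andrographis and 1.05 in PSMA4 in controls. Same-numbered treated and control libraries of SW480 deviated together here, with correlations of 0.56 over all genes tested and 0.82 over the subunit genes. The main fit did not use these numbers, since the labels do not say that a number marks a shared culture. The keratin genes KRT18 and KRT8 fell in SW480 with andrographis, by 0.97 and 0.61 on the log2 scale, and were 2 of the 4 tested genes among 6 epithelial and intestinal markers. The tested gene CDX2 had 4.47 and 8.16 FPKM with andrographis and 8.60 and 11.1 FPKM in controls. EPCAM had 110 and 140 FPKM with andrographis and 78.5 and 161 FPKM in controls, and its groups overlapped. The summed level of the 6 markers was 651 to 695 FPKM with andrographis and 980 to 1234 FPKM in controls. KRT18 was the largest part of this sum, with 348 and 332 FPKM with andrographis and 598 and 739 FPKM in controls. The 3 immune markers summed to at most 0.781 FPKM with andrographis and 0.392 FPKM in controls. The part of the marker change in the result was not tested.

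**Figure D3:**
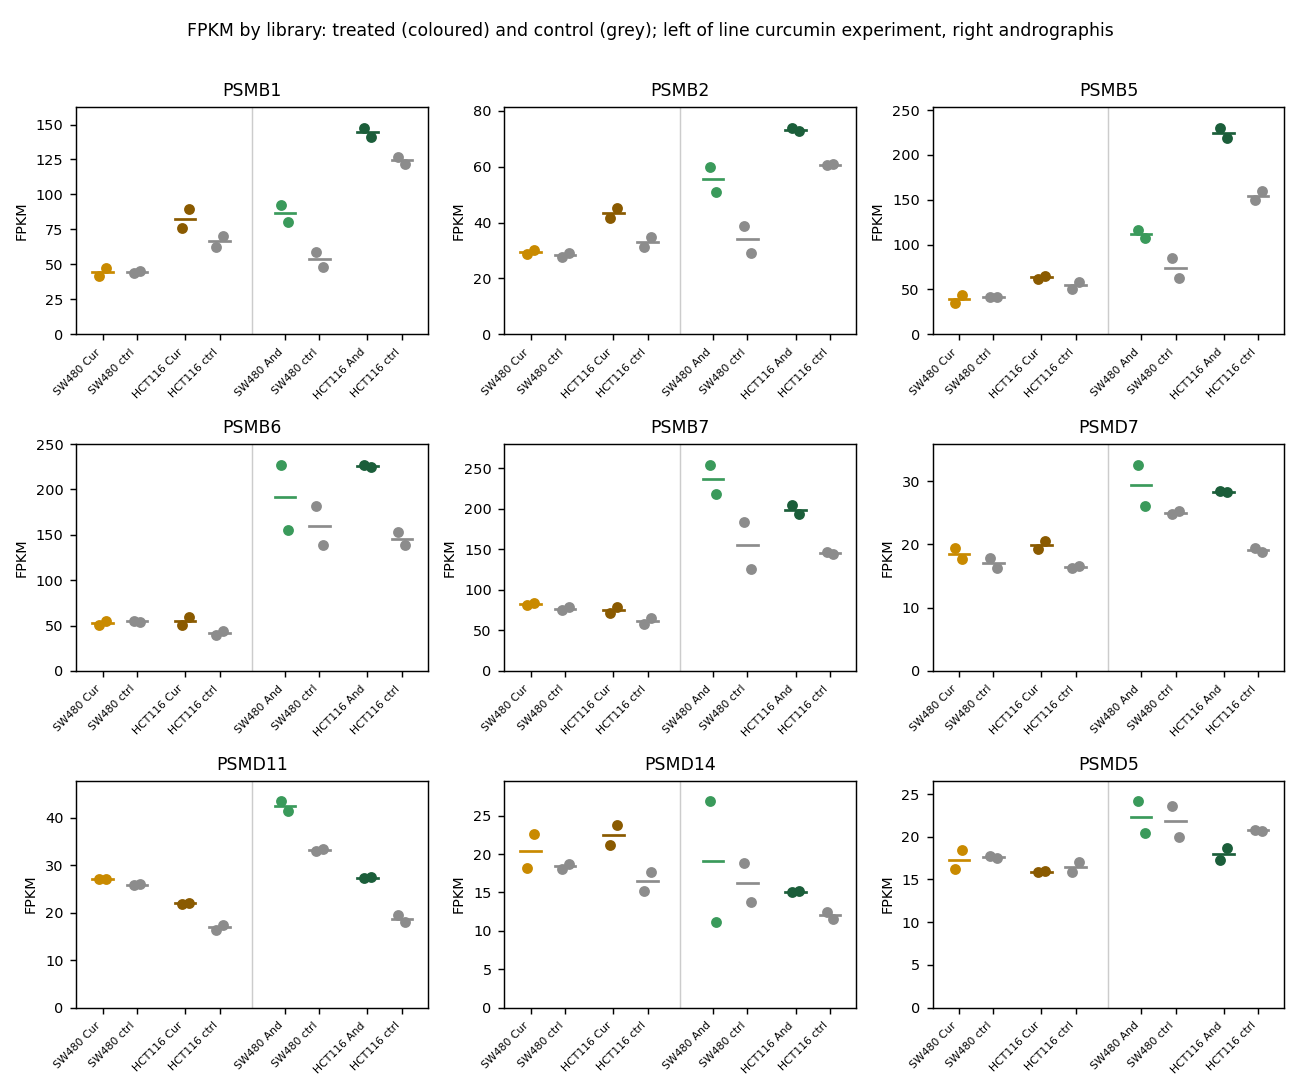
FPKM of 9 subunit genes in each library (points) with the mean of the 2 libraries (bar), treated cells in colour to the left of their grey controls; the curcumin experiment is left of the thin line and the andrographis experiment right of it. PSMB1 and PSMB2 separate in SW480 with andrographis and PSMD7 and PSMD11 in HCT116 with andrographis, while PSMD14 in SW480 with andrographis spans 11.2 to 26.9 FPKM and PSMD5 spans 15.9 to 24.2 FPKM over all libraries.

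In HCT116 cells with andrographis, limma called 2 subunit genes, both of the lid, a share near that of all genes. Nearly all other subunit genes lay above their controls. Of 32 genes tested in limma, 2 were called higher and 0 lower at an adjusted p below 0.05, a share of 6.25%, where 6.82% of all 12811 genes were called with 2.87% called higher and 3.95% lower. PSMD11 had 27.4 and 27.5 FPKM with andrographis and 19.5 and 18.0 FPKM in controls, a log2 fold change of 0.53 (SE 0.10, adjusted p = 0.0288). PSMD7 had 28.5 and 28.2 FPKM with andrographis and 19.4 and 18.7 FPKM in controls, a log2 fold change of 0.55 (SE 0.12, adjusted p = 0.0483). The treated libraries of both genes agreed closely and lay above both controls, as in 34% of all genes.

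Neither call in HCT116 held when any 1 of the 4 HCT116 libraries was left out, with an adjusted p of 0.166 to 0.242 for PSMD11 and 0.242 to 0.296 for PSMD7, although the log2 fold changes stayed between 0.47 and 0.58. The fit shares 1 estimate of the spread between both cell lines, and the SW480 replicates of this experiment had the wider gaps. Fitted on the 4 HCT116 libraries alone, 25 of 32 subunit genes were called higher and 1 lower at an adjusted p below 0.05, where 17.9% of all genes were called higher and 20.4% lower. The lower one was PSMD5.

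Both treated libraries lay above both controls in 30 of the 32 genes in HCT116 cells with andrographis, where 34% of all genes did so. The 2 others were PSMD5 and PSMA1, in which both treated libraries lay below, as in 38.5% of all genes. PSMD5 had 17.2 and 18.7 FPKM with andrographis and 20.8 and 20.7 FPKM in controls, and PSMA1 had 0.719 and 1.19 FPKM with andrographis and 1.34 and 1.41 FPKM in controls. The median log2 fold change was 0.31 over the subunit genes and −0.02 over all genes tested. At an unadjusted p below 0.05, 10 of 32 were higher and 0 lower, where 10.3% of all genes were higher and 13.5% lower. That count was 4 or 5 when any 1 of the 4 HCT116 libraries was left out, where 5.12% to 6.16% of all genes were higher, and 26 when these 4 libraries were fitted alone, where 23.2% were.

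The shift in HCT116 cells with andrographis covered each part of the particle and was smallest in the chaperones. The median log2 fold change was 0.26 in the alpha ring, 0.38 in the beta ring, 0.36 in the base ATPases, 0.34 in the other base subunits and 0.35 in the lid, while the 3 chaperone genes ran from −0.20 to 0.11. PSMB6 had 226 and 224 FPKM with andrographis and 153 and 138 FPKM in controls (0.63, SE 0.21, adjusted p = 0.133), the largest fold change of the subunit genes here. PSMB5 had 230 and 219 FPKM with andrographis and 149 and 159 FPKM in controls (0.54, SE 0.16, adjusted p = 0.0986), and PSMB7 had 204 and 193 FPKM with andrographis and 146 and 144 FPKM in controls (0.45, SE 0.19, adjusted p = 0.213). All 3 catalytic genes were separated from their controls without passing the threshold, where 34% of all genes were separated with andrographis higher. PSMD4 had 69.1 and 68.9 FPKM with andrographis and 55.6 and 53.2 FPKM in controls, and PSMD14 had 15.0 and 15.2 FPKM with andrographis and 12.5 and 11.6 FPKM in controls.

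**Figure D4:**
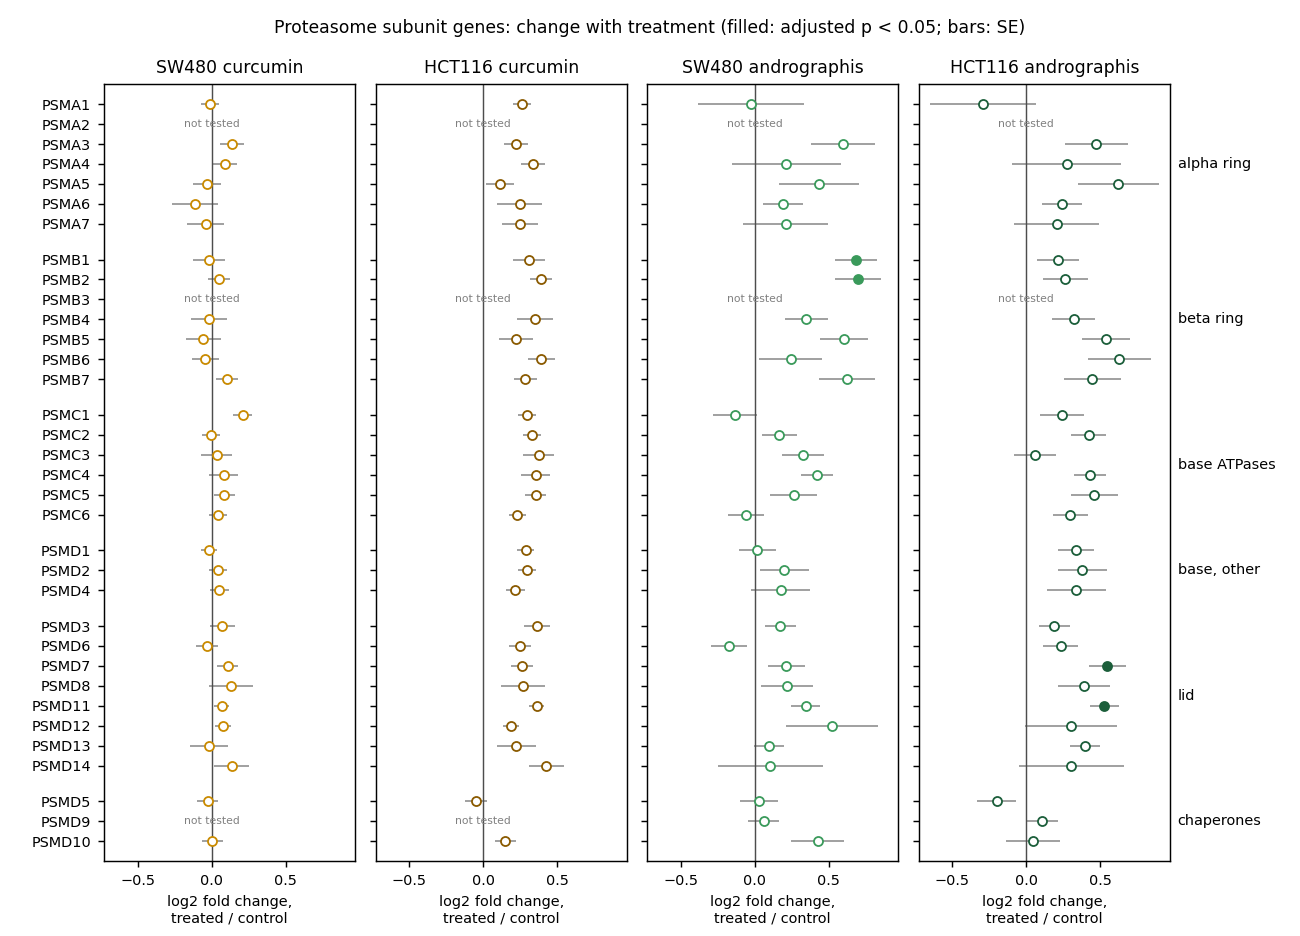
Log2 fold change of treated over control cells (horizontal axis) with its standard error for each tested subunit gene, grouped by place in the particle, in the 4 comparisons; filled points passed an adjusted p of 0.05. Filled points are PSMB1 and PSMB2 in SW480 with andrographis and PSMD7 and PSMD11 in HCT116 with andrographis, and 30 of 31 points lie right of 0 in HCT116 with curcumin.

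The effect of andrographis was not shown to differ between the cell lines, each at its own dose, for any subunit gene. The interaction contrast called 0 of 32 genes, where 302 of 12811 genes (2.36%) were called, and at an unadjusted p below 0.05 it was higher in SW480 for PSMB1 only and lower for PSMD6 only, where 10.4% of all genes were higher and 9.64% lower. The genes called in one line lay in the same direction in the other. In HCT116, PSMB1 had 148 and 141 FPKM with andrographis and 127 and 122 FPKM in controls, and PSMB2 had 73.8 and 72.6 FPKM with andrographis and 60.5 and 60.9 FPKM in controls. In SW480, PSMD11 had 43.5 and 41.4 FPKM with andrographis and 33.0 and 33.4 FPKM in controls, and PSMD7 had 32.6 and 26.1 FPKM with andrographis and 24.7 and 25.3 FPKM in controls. None of these groups overlapped, where 34% of all genes in HCT116 and 21.1% in SW480 were separated with andrographis higher. The interaction of PSMB1 was 0.47 (SE 0.20, adjusted p = 0.249). Without SW480 andrographis replicate 1, PSMD7 was called with an interaction of −0.49 (adjusted p = 0.0394). Summed over the 34 genes, expression in SW480 was 2178 and 1736 FPKM with andrographis and 1685 and 1392 FPKM in controls, and in HCT116 it was 2097 and 2075 FPKM with andrographis and 1630 and 1598 FPKM in controls.

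The values with both compounds can be set side by side, since the experiments had separate controls. In HCT116, 26 of 31 genes tested in both experiments lay above their controls in both libraries with curcumin and again with andrographis, where 10.2% of the 11500 genes tested in both did so. The size of the change in a gene with curcumin said little about its size with andrographis, with Pearson's r of 0.29 and Spearman's rho of 0.07 across the 31 genes, which share libraries and are not independent. Across the 32 genes of the andrographis experiment, r was 0.34 and rho 0.37 between SW480 and HCT116. PSMD5 was near or below 0 in all 4 comparisons, with log2 fold changes of −0.03 and −0.05 with curcumin and 0.03 and −0.20 with andrographis in SW480 and HCT116, in this order of the lines. In SW480 this did not set PSMD5 apart, since other genes lay below 0, such as PSMB1 with curcumin (−0.02) and PSMD6 with andrographis (−0.17). In HCT116 with andrographis, PSMA1 was lower still (−0.29).

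Among the tested subunit genes with a promoter window, those with and without the antioxidant response element letters differed little in their median fold changes. PSMA7, PSMB1, PSMB6, PSMB7 and PSMD4 had no window in use and stand in neither group. In HCT116 with andrographis the median log2 fold change was 0.29 in 8 tested genes with a match and 0.32 in 19 without one. In HCT116 with curcumin it was 0.34 in 7 genes with a match and 0.26 in 19 without one. In SW480 it was 0.19 with a match and 0.21 without one with andrographis, and 0.08 and 0.03 with curcumin. Whether the element had a part in the changes was not tested. Of the genes whose stretches are printed, PSMA4, PSMC5, PSMD3 and PSMD12 had log2 fold changes of 0.34, 0.36, 0.36 and 0.19 in HCT116 with curcumin and of 0.28, 0.46, 0.19 and 0.30 in HCT116 with andrographis, none of them called. PSMD5, whose sequence holds the letters, had the lowest value of the genes with a match in both of these comparisons.

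Genes that work with the proteasome outside these families were given by list. Among 8 genes of transcriptional control, KEAP1, the adaptor that holds NFE2L2 for degradation, rose with andrographis in both cell lines. KEAP1 had 54.4 and 60.7 FPKM with andrographis and 41.0 and 32.6 FPKM in controls of SW480 (log2 fold change 0.64, adjusted p = 0.0445), and 76.5 and 82.6 FPKM with andrographis and 44.7 and 48.7 FPKM in controls of HCT116 (0.76, adjusted p = 0.0296). The other 7 genes of that list were not called in any of the 4 comparisons. NFE2L1, noted after its values were seen, had 54.1 and 48.7 FPKM with curcumin and 39.9 and 39.3 FPKM in controls of SW480 (0.37, adjusted p = 0.107), and 57.2 and 60.1 FPKM with curcumin and 44.0 and 46.3 FPKM in controls of HCT116 (0.37, adjusted p = 0.132). With andrographis its log2 fold change was −0.32 in SW480 and −0.00 in HCT116.

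Together, these lists of genes outside the subunit families had 58 tested genes. With andrographis 3 of them (5.17%) rose in SW480 and 4 (6.9%) in HCT116, KEAP1 included, where 3.08% and 2.87% of all genes were called higher. With curcumin 0 were called in either line, where 0.306% and 0.171% of all genes were. In HCT116, PAAF1, which binds the base ATPases during assembly, rose by 1.06 on the log2 scale, with 5.39 and 4.78 FPKM with andrographis and 1.78 and 2.04 FPKM in controls, as 1 of 6 assembly factors. The proteasome activator gene PSME4 rose there by 0.54, as 1 of 5 activator and inhibitor genes, and COPS6 rose by 0.50, as 1 of 9 genes of the COP9 signalosome, a complex related to the lid. In SW480, SEM1, a small subunit of the lid, rose by 0.82, with 18.4 and 24.7 FPKM with andrographis and 11.6 and 11.7 FPKM in controls. UFD1, a cofactor of the segregase VCP, rose there by 0.63, as 1 of 8 genes of its list. Of the 6 genes for ubiquitin and its activating enzymes and of 13 shuttle, deubiquitinase and associated genes, none was called in the 4 comparisons of treated with control cells. The immunoproteasome genes PSMB8 and PSMB9, whose products replace catalytic subunits in immune cells, were listed at 0.0115 FPKM or lower in every library. The core gene PSMB3 was also listed at or near 0, so such values alone do not show that PSMB8 and PSMB9 were silent. PSMB10 had 0.540 to 10.3 FPKM and was not called with either compound. PSMB10 was called higher in SW480 than in HCT116 controls in both experiments, by 1.18 with an adjusted p of 0.000104 in the curcumin experiment and by 1.30 with an adjusted p of 0.000488 in the andrographis experiment, on the log2 scale.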

How the data were processed

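Cells were treated for 16 h and total RNA was made into libraries with a TruSeq RNA kit. The authors deposited log2 values per gene and library in 1 table per compound. In their notes the submitters name bcl2fastq 2.20.0.422, STAR 2.7.8a, Partek 10.0.22.0121, DESeq2 and the builds GRCh38 and mm10, without roles; the counting tool, strand setting and unit are not given in the sources used here. The deposited log2 values behaved as log2(FPKM + 1): in low microRNA genes they back-transformed to whole multiples of 1 step per gene (within 0.01 of the read number, up to 20 reads), in 97.5% to 100% of the values of a library. This step gave the approximate depths. Gene length makes FPKM comparable between genes of one library, and a large share of one transcript class lowers all other values.

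Each experiment was fitted separately with limma 3.58.1 in R 4.3.3 (lmFit, eBayes with trend) on log2(FPKM + 1), with 4 group means and 4 residual degrees of freedom, over genes that reached 1 FPKM in 2 or more libraries (16341 genes with curcumin, 12811 with andrographis). PSMA2 and PSMB3 did not pass in either experiment and PSMD9 did not pass with curcumin. Genes were called at a Benjamini-Hochberg adjusted p below 0.05 over all genes tested, in either direction and at any fold. Fold changes on this scale understate the change of low genes.

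The subunit genes and the other lists were chosen with earlier results of these data known. Values of every library were given for called subunit genes, at most 6 in each direction, and for PSMB5, PSMB6, PSMB7, PSMD4 and PSMD14; from other lists at most 3 called genes were named. Genes outside this rule serve as examples of a range. In simulated data, 50 genes at each size of change were altered, all with a mean of 10 FPKM or more. All other genes stayed at the control level. There the fit found 38%, 50%, 2% and 8% of genes changed by a log2 fold of 0.5, and 86%, 88%, 54% and 42% of those changed by 1, in SW480 with curcumin, HCT116 with curcumin, SW480 with andrographis and HCT116 with andrographis. A gene had the same simulated spread in all groups of an experiment, although real replicate gaps with andrographis were smaller in HCT116 than in SW480. The adjusted threshold also depends on how many genes change, so these shares need not hold for the real libraries. Alternatives were other scalings, pseudocounts of 0.1 and 10, no filter and a filter at 10 FPKM, protein-coding genes only, no trend, a block for replicates, a fit on the libraries of 1 comparison alone, and omission of each library in turn. Scaling without the mitochondrial genome and a replicate block within each line were added after the data were seen. Tables and figures were made in Python 3.11.15 (pandas 2.3.3, matplotlib 3.10.9).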

Additional observations from a re-analysis of the deposited data

How the results depend on the processing

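The median log2 fold change of the subunit genes kept its sign in HCT116 with curcumin and in both lines with andrographis under all settings run; in SW480 with curcumin it was 0.04 and became −0.01 when libraries were scaled to the same sum over protein-coding genes and −0.03 without SW480 curcumin replicate 2. Counts of called genes were less stable. They are given here without the share of all genes called under the same setting, so a rise in a count is not a trait particular to the subunit genes. In HCT116 with curcumin the count of 0 became 3 with a filter at 10 FPKM (PSMB2, PSMC2, PSMD11) and 4 over protein-coding genes only (PSMC5 in addition). In SW480 with andrographis the count of 2 became 0 with no filter, 0 with only the libraries of the comparison and 3 with libraries scaled to the same median (PSMC4 in addition), and in HCT116 with andrographis it became 1 with a pseudocount of 0.1, 3 with a pseudocount of 10 (PSMD13 in addition), 1 with no filter and 26 with only the libraries of the comparison. Leaving out 1 library gave 0 to 5 calls in SW480 and 0 to 0 in HCT116 with andrographis, 0 to 0 in both lines with curcumin, 0 to 1 for the difference between lines with andrographis and 0 to 0 with curcumin, and 10 to 15 and 6 to 9 for the lines' controls in the curcumin and andrographis experiments. Where a filter or gene set changed a count, fewer or more genes were adjusted over. Other causes were not tested. The filter at 10 FPKM also sets the subunit genes beside genes nearer to them in level. There, at an unadjusted p below 0.05 in limma, 0 of 28 were higher in SW480 and 21 of 28 in HCT116 with curcumin, where 8.01% and 10.5% of all genes were. With andrographis 8 of 27 were higher in SW480 and 9 of 27 in HCT116, where 17.1% and 14.2% of all genes were.

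Replicate numbers are shared between groups, but nothing says that a number marks a shared culture or day. Deviations of same-numbered libraries correlated at 0.03, 0.20, 0.56 and −0.00 over all genes tested, and at 0.39, 0.64, 0.82 and 0.20 over the subunit genes, in SW480 and HCT116 with curcumin and SW480 and HCT116 with andrographis. With the replicate block the count in HCT116 with andrographis was 1, and PSMD7 was the gene lost (adjusted p = 0.0554). With a replicate block within each line it was 6 in HCT116 (PSMA5, PSMB5, PSMB6 and PSMC4 in addition) and 7 in SW480 with andrographis (PSMA5, PSMB5, PSMB7, PSMC4 and PSMD12 in addition). There, 22 and 12 of 32 genes were higher at an unadjusted p below 0.05, against 10 and 8 without the block, and 14.1% and 17.5% of all genes were. The block changed no other count of called genes in the 4 comparisons. The share of all genes called with a block is not given here, so these counts describe the subunit genes only.

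When 1 library was left out, the sign of the log2 fold change turned in 18 of 31 subunit genes in SW480 with curcumin, 1 of 31 in HCT116 with curcumin (PSMD5, −0.097 to 0.0004), 13 of 32 in SW480 with andrographis and 0 of 32 in HCT116 with andrographis. In SW480 with curcumin, PSMB1 (−0.02 as reported) was 0.02 after scaling libraries to 1 median, and PSMB2 was −0.0001 with the same sum over protein-coding genes. Leaving out 1 library there gave PSMB1 −0.10 to 0.074, PSMB5 −0.21 to 0.099, PSMB6 −0.096 to 0.011 and PSMD14 −0.011 to 0.28. With andrographis it gave PSMB6 −0.029 to 0.52, PSMD4 −0.13 to 0.49 and PSMD14 −0.49 to 0.70. In the simulated data the fit found 38% and 50% of genes changed by a log2 fold of 0.5 in SW480 and HCT116 with curcumin, and 2% and 8% with andrographis. Many changes of that size thus went uncalled in the simulation. The number of changed genes differed from that in the real comparisons, and the simulated spread was shared by both cell lines, so these shares cannot be carried over to them. What depth limits was not tested.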
